A study of Mus musculus with 8 samples.

Results

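Genes of the interferon response and of antigen presentation were followed in inguinal white adipose tissue, a fat pad under the skin of the groin, of mice that lacked Lsd1 in adipocytes. The set is a list of 46 genes named for their function: interferon-stimulated genes, genes of the major histocompatibility complex (MHC) class I pathway and genes of the MHC class II pathway. Of these, 45 had a row among the 23360 genes of the deposited tables, 32 of them interferon-stimulated, 8 of class I and 5 of class II. All 45 reached a value of 10 in 4 or more libraries, the minimum for testing, and so were among the 14591 genes tested. The remaining gene, Mx1, was matched to no row and was not analysed here.

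RNA was sequenced from 4 Lsd1 KO and 4 control libraries, all from mice 6 weeks of age. The Lsd1 KO mice carried floxed Lsd1 alleles and the Adipoq-Cre transgene, whose promoter is active in adipocytes, and the controls carried the floxed alleles. The labels name no group with Adipoq-Cre alone, so the transgene and the loss of Lsd1 cannot be told apart. They do not state that each library came from its own animal, so the p-values rest on the spread between libraries alone, and that spread may be technical. Immune and vascular cells of the pad do not express Adipoq and keep the gene. Kdm1a, which encodes Lsd1, was at 568 ± 15.4 in Lsd1 KO and 729 ± 51.1 in control libraries (SD, n = 4 each; log2 fold change -0.36, limma adjusted p = 0.0498). It was called in 5 of 17 alternative fits and in 0 of the 8 that left out 1 library, with log2 fold changes of -0.43 to -0.31. Control replicates 1 and 2 are numbered 518 and 517 in their titles and the other libraries 356 to 361; what the numbers stand for is not given. Some libraries stood apart in markers of other cells: those of skeletal muscle were high in Lsd1 KO replicates 1, 2 and 4, and those of B and T cells were lowest in control replicate 2.

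Interferons are secreted proteins that warn tissue of infection. Type I interferons and interferon gamma bind receptors coupled to Janus kinases, which activate STAT proteins, and STAT and IRF transcription factors then switch on antiviral genes through short DNA elements. The MHC class I pathway cuts proteins in the proteasome, moves the peptides into the endoplasmic reticulum and shows them on nearly every cell to CD8+ T cells. MHC class II shows peptides from engulfed material to CD4+ T cells and is known mainly from B cells, dendritic cells and macrophages, all of which live in fat.

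The promoters below are examples that hold a searched motif, and H2-Q10 among them is not one of the 45 genes. Windows ran from 250 bases before to 50 bases after a gene's start (RefSeq, GRCm38.p6) and were given for 34 of the 45 genes. GAAANNGAAA, a form of the interferon-stimulated response element, was searched on both strands. It was found in 16 of 25 interferon-stimulated genes (64.0%), in 1 of 7 class I genes, which was B2m, and in 0 of 2 class II genes, against 3.99% of 27025 genes with a window. The form that is 1 base shorter, GAANNGAAA, cannot match at the same site. It was found in 10 of the 25 interferon-stimulated genes and in 2 of 7 class I genes, H2-K1 and H2-D1, as well as in H2-Q10, against 8.68% of all genes. TTCNNNGAA, a STAT-type site, was in 6 of the 25 interferon-stimulated genes and in 9.55% of all genes. CCAAT, part of the promoter of many MHC genes, was in 6 of 7 class I and 2 of 2 class II genes and in 41.1% of all genes. These are matches of letters, not shown sites of binding.

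Each sequence runs 5′ to 3′ on the strand of its gene. Capitals mark the matches of the motif named here for that gene, and matches of the other motifs are left in lower case. Positions count from the start that the window was drawn around. H2-K1 has 2 windows in the table, drawn around starts inside the gene's annotated span, and the first listed is shown. Ifit1 (chr19:34640639-34640938, plus strand) shows GAAANNGAAA on its other strand at -104 and -85 from the start. H2-K1 (chr17:34000298-34000597, minus strand) and H2-Q10 (chr17:35469839-35470138, plus strand) show GAANNGAAA on the other strand at -90 and -155. H2-Eb1 (chr17:34305617-34305916, plus strand) shows CCAAT on the other strand at -59 and on its own at -35.
Ifit1: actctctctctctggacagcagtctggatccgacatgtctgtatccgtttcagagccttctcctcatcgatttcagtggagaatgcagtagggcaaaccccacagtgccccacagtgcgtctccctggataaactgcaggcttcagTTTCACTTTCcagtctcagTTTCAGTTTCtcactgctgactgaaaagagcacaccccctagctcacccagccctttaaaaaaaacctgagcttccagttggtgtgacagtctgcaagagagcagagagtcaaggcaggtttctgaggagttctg
H2-K1: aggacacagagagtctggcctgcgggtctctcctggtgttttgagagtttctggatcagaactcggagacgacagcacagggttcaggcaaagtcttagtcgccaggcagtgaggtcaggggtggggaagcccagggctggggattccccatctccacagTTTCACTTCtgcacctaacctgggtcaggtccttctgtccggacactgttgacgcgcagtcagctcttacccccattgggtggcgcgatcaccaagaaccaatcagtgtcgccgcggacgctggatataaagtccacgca
H2-Q10: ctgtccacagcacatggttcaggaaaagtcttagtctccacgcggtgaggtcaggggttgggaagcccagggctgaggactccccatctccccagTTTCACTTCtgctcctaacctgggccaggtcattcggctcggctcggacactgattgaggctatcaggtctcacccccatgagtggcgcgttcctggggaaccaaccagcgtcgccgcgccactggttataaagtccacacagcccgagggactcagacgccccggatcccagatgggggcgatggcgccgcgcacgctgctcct
H2-Eb1: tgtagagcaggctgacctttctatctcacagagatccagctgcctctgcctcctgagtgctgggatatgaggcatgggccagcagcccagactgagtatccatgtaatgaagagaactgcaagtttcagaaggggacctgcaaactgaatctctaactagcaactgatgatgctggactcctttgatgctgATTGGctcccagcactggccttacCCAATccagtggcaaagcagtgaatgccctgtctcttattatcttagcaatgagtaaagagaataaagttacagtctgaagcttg
The windows of H2-K1 and H2-Q10, which encode related class I heavy chains, had 195 of 235 aligned bases in common (83.0%). Both carry the same stretch in capitals. Its position differs because the starts of the windows fall at different points of the shared sequence. Both windows hold tataaagtccac after that stretch, at the end of the window in H2-K1 and farther from the end in H2-Q10.

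No gene of the set passed the test between genotypes. With limma and Benjamini-Hochberg adjustment over all 14591 genes, 0 of 45 had an adjusted p under 0.05 in either direction, where 1.64% of all genes did (1.28% higher and 0.356% lower in Lsd1 KO). At an unadjusted p under 0.05 there were 6 of 45 (13.3%), against 14.5% of all genes: Dhx58, Bst2, Rtp4, Tapbp, Psmb8 and H2-K1. The edgeR test on reads recovered from the scaled values also called 0 of 45 (1.49% of all genes), and DESeq2 called 1 of 45, Tapbp (5.32% of all genes). All 4 Lsd1 KO libraries lay above the 4 control libraries for 3 of 45 genes (6.67%), namely Rtp4, Tapbp and H2-K1, and 0 of 45 had all Lsd1 KO libraries below the controls. Of all genes 8.65% had groups apart, 5.06% with Lsd1 KO above and 3.58% with Lsd1 KO below.

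The fold changes were small and mostly of one sign. Fold changes are Lsd1 KO minus control on the log2(value + 1) scale. They were positive for 39 of 45 genes (86.7%), against 54.6% of all genes, with a median of 0.26 against 0.02. By group the median was 0.26 for the interferon-stimulated genes (26 of 32 positive), 0.22 for class I (8 of 8) and 0.31 for class II (5 of 5). The median and the count of positive signs varied between alternative fits. Control replicate 2 held the lowest value for 23 of the 45 genes and control replicate 1 for 11, so leaving both out was bound to lower many fold changes. Without control replicates 1 and 2 together the median was 0.08, with 31 of 45 positive, and with the B cell marker level as a covariate it was 0.09, with 33 of 45 positive. Leaving out 1 library gave medians from 0.16 (without Lsd1 KO replicate 2) to 0.38 (without control replicate 3). The count of positive signs in these fits stayed between 37 of 45 (without control replicate 2) and 43 of 45 (without control replicate 3).

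**Figure D1:**
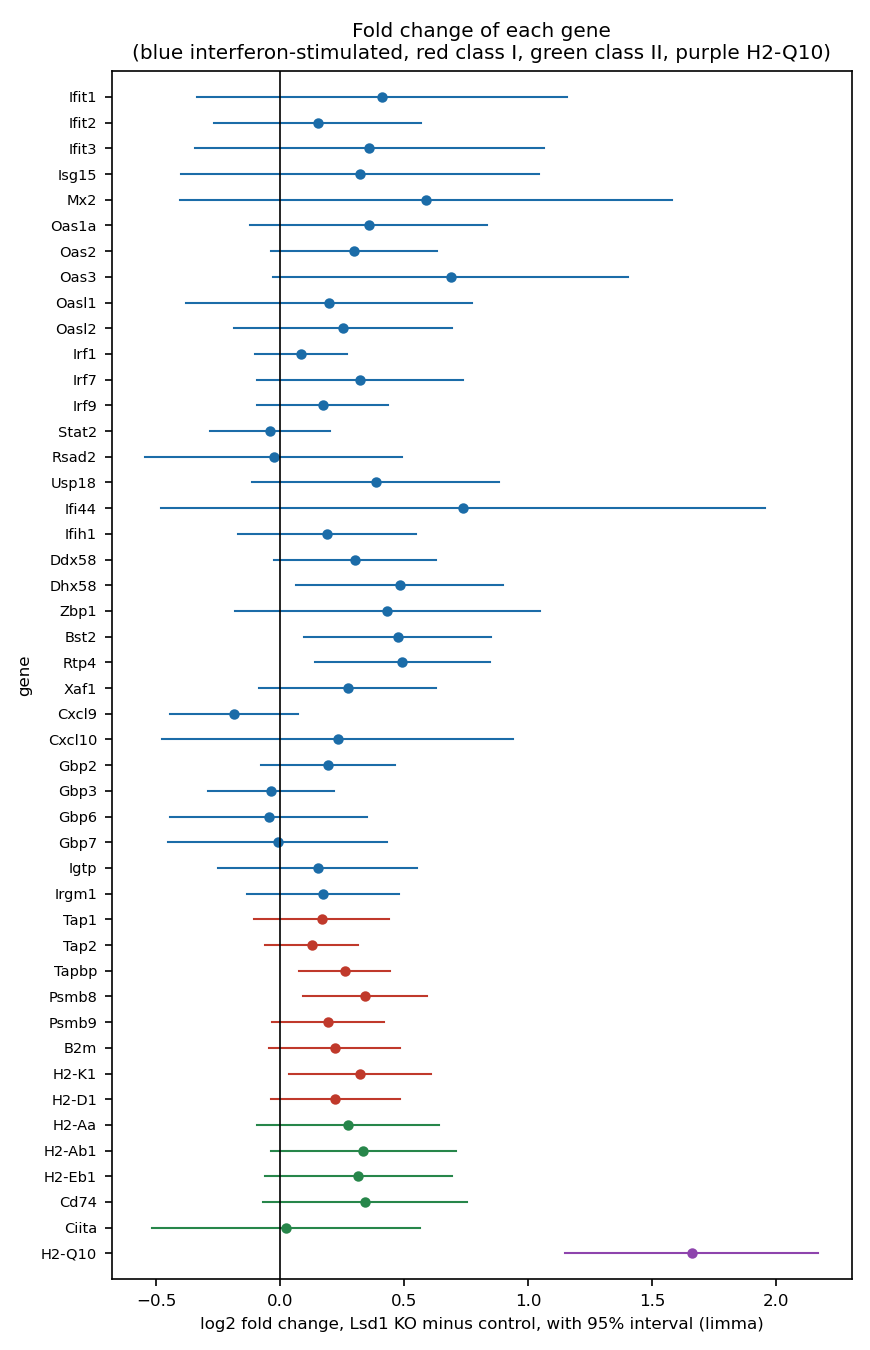
Log2 fold change (Lsd1 KO minus control, horizontal axis) of each gene with its 95% interval from limma, in blue for interferon-stimulated, red for class I and green for class II genes, with H2-Q10 in purple in the bottom line. Most points lie a little right of 0 with intervals that cover it, and H2-Q10 lies far to the right at 1.66.

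Among the antiviral effectors, 8 of 9 had a positive fold change, with a median of 0.41. Ifi44 and Mx2, a dynamin-like GTPase that blocks virus entry or traffic, had the widest spread. Ifi44 was at 175, 294, 274 and 156 scaled reads in Lsd1 KO replicates 1 to 4, against 64.9, 54.6, 320.2 and 246 in control replicates 1 to 4. The control group thus held both the highest and the lowest libraries, control replicate 3 and control replicate 2. Its log2 fold change was the largest of the set (0.74, SE 0.55, limma adjusted p = 0.581). Mx2 was at 91.6, 269.9, 153 and 103 in Lsd1 KO and at 46.9, 68.3, 167 and 140.3 in control libraries (log2 fold change 0.59, SE 0.44, limma adjusted p = 0.591). Only Lsd1 KO replicate 2 lay above every control library for Mx2. Control replicates 1 and 2 were the lowest libraries for both genes, so leaving them out had to lower the fold changes. Without control replicates 1 and 2 together both log2 fold changes were negative, -0.37 for Ifi44 and -0.12 for Mx2.

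Ifit1, whose protein binds foreign RNA and stops its translation, had the same shape. Its values were 315, 754, 376 and 247 in Lsd1 KO and 238, 222, 454 and 294 in control libraries. Lsd1 KO replicate 2 and control replicate 3 stood above the rest in their groups, and the fold change was 0.41 (SE 0.33, limma adjusted p = 0.621). Ifit3 (0.36) and Ifit2 (0.15) did not pass either. Rsad2, the radical SAM enzyme viperin, was at 428 ± 148 in Lsd1 KO and 423 ± 84.4 in control libraries, so its mean was slightly higher in Lsd1 KO while its log2 fold change was -0.03.

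Rtp4 and Bst2 had the lowest adjusted p of the interferon-stimulated genes. Rtp4, a gene of the receptor transporter family that interferon induces, was at 592, 792, 755 and 610.1 in Lsd1 KO and 446, 374, 560 and 588 in control libraries. The groups did not overlap, with 592 as the lowest Lsd1 KO and 588 as the highest control value (fold 1.41, 95% interval 1.10 to 1.80, limma adjusted p = 0.187, exact permutation p = 0.0286 two-sided, the smallest that 4 against 4 libraries allow). Bst2 encodes tetherin, which holds budding virus at the cell surface, and had the highest level per kilobase of transcript among the interferon-stimulated genes. It was at 1441, 1900.3, 1672 and 1601 in Lsd1 KO and 880.0, 1083, 1613 and 1280.1 in control libraries. Control replicate 3 lay within the Lsd1 KO range, and the fold was 1.39 (1.07 to 1.80, limma adjusted p = 0.238).

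The oligoadenylate synthetase family, whose active members sense double-stranded RNA and switch on RNase L, had 5 of 5 positive fold changes with a median of 0.30. Oas3 was at 185, 417, 245 and 209 in Lsd1 KO and 164, 89.4, 247 and 160.4 in control libraries. Lsd1 KO replicate 2 was high and control replicate 2 low, and the difference did not pass (log2 fold change 0.69, SE 0.32, limma adjusted p = 0.366). Oas1a, Oas2, Oasl1 and Oasl2 ranged from 0.20 to 0.36. Isg15, a ubiquitin-like protein joined to other proteins in infected cells, and Usp18, which removes it, had 0.32 and 0.39.

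The 4 sensors of foreign nucleic acid all had a positive fold change. Dhx58, a helicase that tunes the RIG-I pathway, was at 335, 506, 450.3 and 341 in Lsd1 KO and 313, 218, 374 and 268 in control libraries. Control replicate 3 overlapped the Lsd1 KO range (log2 fold change 0.48, SE 0.19, limma adjusted p = 0.277). Ddx58, which encodes RIG-I itself, had 0.30, Ifih1 0.19 and Zbp1, a sensor of Z-form nucleic acid, 0.43.

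The chemokines and the interferon-inducible GTPases showed no common direction. Cxcl9 and Cxcl10 draw T cells that carry CXCR3. Cxcl9 was at 505, 712, 625 and 545 in Lsd1 KO and 655, 685, 742 and 617 in control libraries, and its log2 fold change of -0.19 was the most negative of the set (SE 0.12, limma adjusted p = 0.506). Cxcl10 had 0.23, with control replicate 3 at 240.4 and the other 3 control libraries at 95.8 to 105. Of 6 GTPases, which attack the vacuoles of microbes inside cells, Gbp2, Igtp and Irgm1 were positive (0.15 to 0.19) and Gbp3, Gbp6 and Gbp7 negative (-0.05 to -0.01). Gbp6 shares 90.2% of its 50-base stretches with Gm43302, whose exons overlap its own on the same strand over 1726 bases, and 62.3% with Gbp10. Oas1a shares 57.6% with Oas1g and Ifit3 51.2% with Ifit3b. Reads of these 3 genes may therefore be split with those annotations.

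The transcription factors that drive these genes had small fold changes, with a median of 0.13. Irf7, itself induced by interferon and needed to amplify it, was at 1244, 1777, 1209 and 1249 in Lsd1 KO and 982, 835, 1518 and 1097 in control libraries. Lsd1 KO replicate 2 and control replicate 3 were each the highest of their group (log2 fold change 0.32, SE 0.19, limma adjusted p = 0.478). Irf9, a DNA-binding factor of the type I interferon response, was at 1156, 1344, 1119 and 1014 in Lsd1 KO and 1050.3, 874, 1218 and 981 in control libraries (0.17, limma adjusted p = 0.553). Stat2 was at 1326, 1402, 1105 and 1189.7 in Lsd1 KO and 1422, 1136, 1439 and 1178 in control libraries, with Lsd1 KO replicate 3 lowest and control replicate 3 highest (-0.04, limma adjusted p = 0.902). Irf1, a factor of the interferon gamma response, was at 1947, 2105, 2185 and 2157 in Lsd1 KO and 2141, 1868, 2131 and 1786 in control libraries. Its highest value was 1.22 times its lowest, the narrowest range of the 45 genes (0.09, SE 0.08, limma adjusted p = 0.689).

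**Figure D2:**
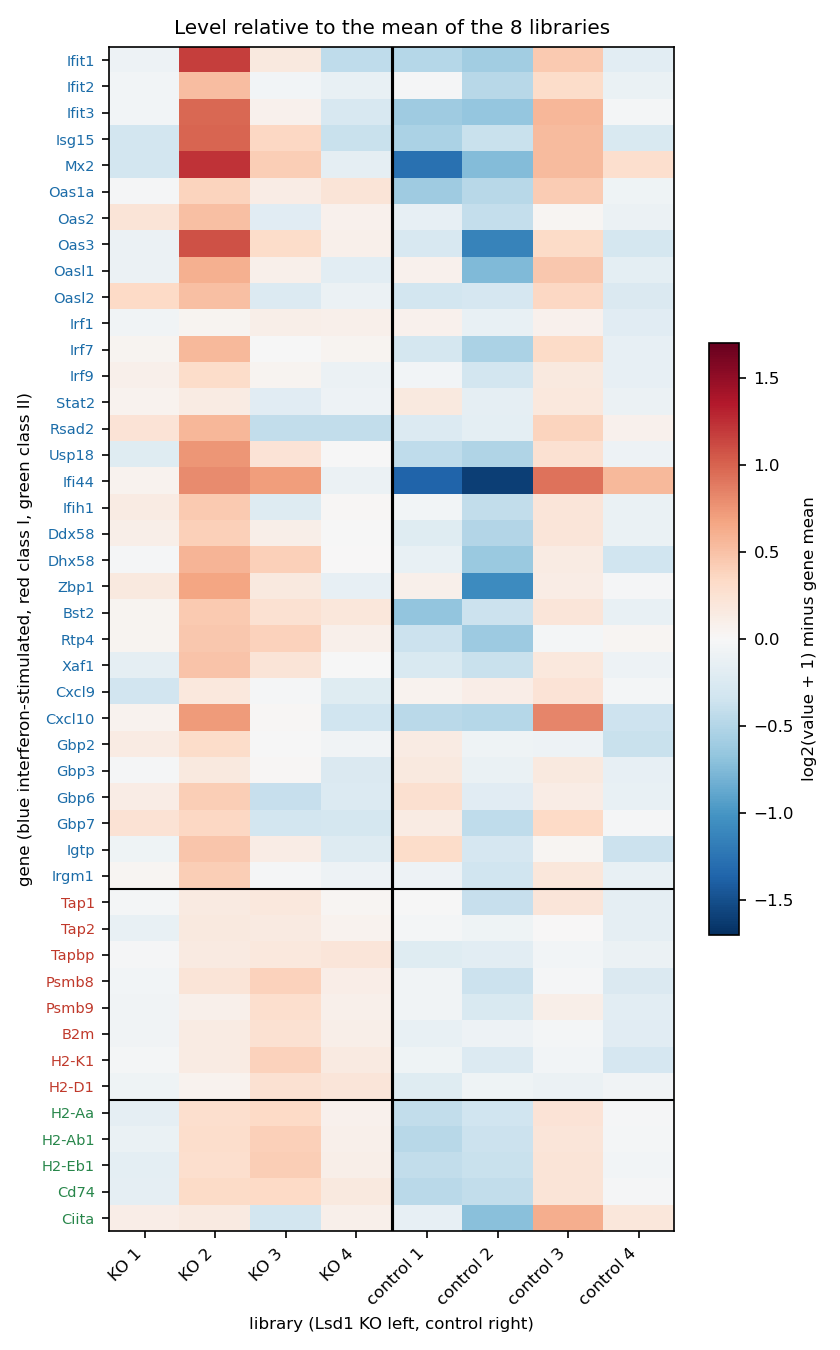
Level of each of the 45 genes in each library, as log2(value + 1) minus the gene's mean over the 8 libraries (colour scale), with Lsd1 KO libraries left and control libraries right of the black line. The column of Lsd1 KO replicate 2 and that of control replicate 3 are red through most interferon-stimulated genes, that of control replicate 2 is blue through most of them and that of control replicate 1 through many.

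Many of the interferon-stimulated genes shared their highest and lowest libraries across genotype, though their full orders differed. Lsd1 KO replicate 2 held the highest value for 26 of the 32 genes, and Lsd1 KO replicate 2 and control replicate 3 were the highest pair for 21 of 32. Control replicate 2 held the lowest value for 19 of 32, and control replicate 1 or 2 for 24 of 32. Over all 14591 genes Lsd1 KO replicate 2 held the highest value for 943, and the lowest lay in control replicate 2 for 3274 and in control replicate 1 for 2220. How often the same pair was highest was not counted over all genes. The mean of the 32 genes on the log2 scale, set against its mean over the 8 libraries, was 0.01, 0.55, 0.07 and -0.11 in Lsd1 KO replicates 1 to 4 and -0.23, -0.47, 0.29 and -0.11 in control replicates 1 to 4. The ranges of the groups overlap.

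The class I pathway had the smallest errors of the 3 groups, with SEs of 0.08 to 0.13 on the log2 scale. Per kilobase of transcript, B2m, the light chain of class I, averaged 39900 scaled reads in Lsd1 KO and 34200 in control libraries. H2-K1, a heavy chain, averaged 19900 in Lsd1 KO and 15800 in control libraries on that scale. All 8 fold changes were positive, between 0.13 and 0.34, and none passed. Tapbp, or tapasin, which holds class I beside the peptide transporter, was at 5804, 6537, 6697 and 6821 in Lsd1 KO and 5099, 5225, 5717 and 5516 in control libraries. The groups did not overlap, though the lowest Lsd1 KO and the highest control value were close (fold 1.20, 95% interval 1.06 to 1.36, limma adjusted p = 0.178, exact permutation p = 0.0286). DESeq2 placed Tapbp past the threshold (log2 fold change 0.24, adjusted p = 0.048), and over the 17 alternatives its adjusted p ran up to 0.675. The exons of Tapbp share 904 bases with the opposite-strand gene Gm19412, and strand is not stated.

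H2-K1 was at 27907, 31473, 37406 and 31788 in Lsd1 KO and 27121, 24257, 27687 and 23459.7 in control libraries. Lsd1 KO replicate 1 lay just above control replicate 3, so the groups did not overlap, and the fold was 1.25 (1.03 to 1.52, limma adjusted p = 0.289, exact permutation p = 0.0286). H2-D1, the other classical heavy chain, was at 26431, 28992, 33340.4 and 31957 in Lsd1 KO and 24221, 26404, 25859.7 and 26605 in control libraries, so that Lsd1 KO replicate 1 lay inside the control range (log2 fold change 0.22, limma adjusted p = 0.425). B2m was at 30344, 34805, 38039 and 34096 in Lsd1 KO and 28974, 29989, 30981 and 27646 in control libraries, with the same overlap (0.22, limma adjusted p = 0.440). Of the 50-base stretches of H2-K1 8.79% and of H2-D1 14.3% occur in other annotated transcripts.

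Psmb8, a catalytic subunit that converts the proteasome to the immunoproteasome, was at 2233, 2682, 3028 and 2477 in Lsd1 KO and 2198, 1789.8, 2272 and 1944 in control libraries. Control replicate 3 lay above Lsd1 KO replicate 1 (fold 1.27, 1.07 to 1.51, limma adjusted p = 0.195). Psmb9, the other such subunit of the set, had a log2 fold change of 0.19. The ratio of Psmb9 to Psmb8 was 0.452 ± 0.0187 in Lsd1 KO and 0.501 ± 0.0173 in control libraries (SD, n = 4 each), a ratio singled out after its values were seen. The transporter genes Tap1 and Tap2 had 0.17 and 0.13. Lsd1 KO replicate 3 was the highest library for 5 of the 8 class I genes, where Lsd1 KO replicate 2 led the interferon-stimulated genes. This was not particular to the class I genes of the set. Lsd1 KO replicate 3 was the most frequent highest library over all 14591 genes, with 3073 against 943 for Lsd1 KO replicate 2. It also led 10 of 19 genes of the other class I list and 7 of 12 T cell markers.

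The class II genes other than Ciita stood at high levels and kept to one pattern. Cd74, the invariant chain that guards the peptide groove, averaged 26400 scaled reads per kilobase in Lsd1 KO and 21100 in control libraries. H2-Aa, the alpha chain of I-A, averaged 10400 in Lsd1 KO and 8690 in control libraries on that scale. Cd74 was at 25664, 35710.3, 35979.9 and 31855 in Lsd1 KO and 20799, 21193, 33167 and 27936 in control libraries. The groups overlapped, with control replicates 1 and 2 lowest and control replicate 3 above Lsd1 KO replicates 1 and 4 (log2 fold change 0.34, SE 0.18, limma adjusted p = 0.444). H2-Ab1, the beta chain of I-A, was at 7558, 9987, 10768 and 8649.7 in Lsd1 KO and 5854, 6303, 9429 and 7971 in control libraries (0.34, SE 0.17, limma adjusted p = 0.401). H2-Aa was at 9546, 12896, 13454 and 11165 in Lsd1 KO and 7915, 8387, 12472 and 10450.3 in control libraries (0.27, limma adjusted p = 0.494). H2-Eb1, the beta chain of I-E, was at 7854, 10741, 11797 and 9462 in Lsd1 KO and 6595, 6803, 10239 and 8569 in control libraries (0.31, limma adjusted p = 0.442).

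These 4 genes put the 8 libraries in one identical order, from Lsd1 KO replicate 3 and Lsd1 KO replicate 2 at the top through control replicate 3 to control replicates 2 and 1 at the bottom. The ratio of Cd74 to H2-Ab1 values stayed between 3.34 and 3.68 in all 8 libraries, and that of H2-Eb1 to H2-Ab1 between 1.04 and 1.13. Ciita, the transactivator on which class II transcription depends, did not follow that order. It was at 979, 1015, 735 and 964 in Lsd1 KO and 821, 557, 1392 and 1039 in control libraries, and its ratio to H2-Ab1 ran from 0.0682 to 0.148. The mean was 923 in Lsd1 KO and 952 in control libraries, yet the log2 fold change was 0.02 (SE 0.24, limma adjusted p = 0.977) and turned negative in several alternative fits, with -0.39 without control replicates 1 and 2 together. The end of Ciita overlaps Dexi on the opposite strand over 329 bases.

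**Figure D3:**
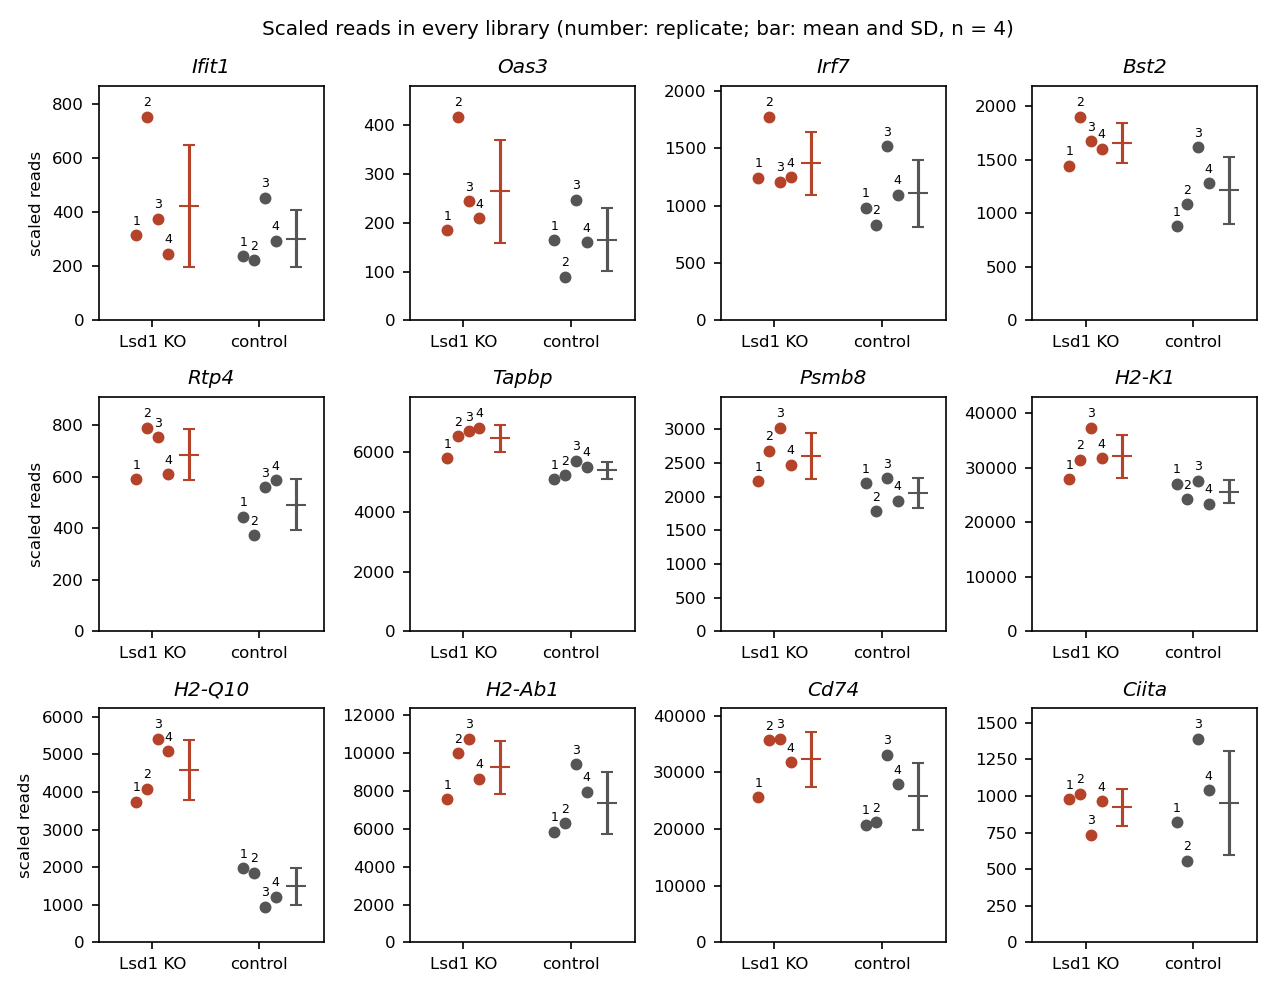
Scaled reads (vertical axis, from 0) of 12 genes in each of the 8 libraries, with the replicate number above each point and the mean and SD of each group (n = 4) beside the points. The groups are apart in Rtp4, Tapbp and H2-K1 by narrow gaps and in H2-Q10 by a wide one, and overlap in the other 8 genes.

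Of the further genes of the pathway, taken from lists of the other known members, 1 of 116 tested passed the test, and it was H2-Q10 (1.64% of all genes passed). H2-Q10 encodes a class I heavy chain that lacks a membrane anchor and is secreted, known mainly from liver. It rose in the Lsd1 KO pads. Its scaled reads were 3737, 4093, 5422 and 5092 in Lsd1 KO and 1969.9, 1854, 948 and 1219.7 in control libraries. The lowest Lsd1 KO value was well above the highest control value, and the means were 4586 ± 799.6 in Lsd1 KO and 1498 ± 493 in control libraries (SD, n = 4 each). The fold was 3.16 (95% interval 2.22 to 4.50). On the log2 scale it was 1.66 (SE 0.23, limma adjusted p = 0.00713, exact permutation p = 0.0286).

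As a percentage of the H2-K1 value it stood at 13.4, 13.0, 14.5 and 16.0% in Lsd1 KO and 7.26, 7.64, 3.42 and 5.20% in control libraries. The Lsd1 KO libraries stood in the same order for H2-Q10 as for H2-K1. Among the control libraries, replicate 3 was the highest for H2-K1 and the lowest for H2-Q10. The call held under all 17 alternatives, with log2 fold changes of 1.46 to 2.08 and adjusted p of 3.45e-09 to 0.0393, the largest of these fold changes without control replicates 1 and 2 together. Of its 50-base stretches 11.0% occur in other annotated transcripts, most often H2-Q1 (7.94%). Its sequence in the window shown above resembles that of H2-K1, whose fold was 1.25. Whether promoter sequence bears on either fold was not tested.

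The other 115 genes did not pass. Of 11 ligands, receptors and kinases tested, 8 had a positive fold change, with a median of 0.06. The largest were in Ifnlr1, the receptor chain for interferon lambda (0.52, SE 0.469, limma adjusted p = 0.657), and its partner Il10rb (0.15, limma adjusted p = 0.385). Ifnlr1 was low, at 12.98 to 31.08 scaled reads in Lsd1 KO and 5.41 to 30.85 in control libraries. Ifnb1, Ifne, Ifnl2 and Ifnl3 were at 0 in all 8 libraries, where 3 reads would be 1.33 to 1.64 scaled reads. Ifnk was under 3 reads in every library. Ifng was at 4.36, 10.3, 10.6 and 5.99 in Lsd1 KO and 4.88, 3.93, 5.88 and 7.22 in control libraries and was too low to be tested.

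Among 20 regulators and sensing genes 14 were positive (median 0.11), led by Socs1, which damps cytokine receptors (0.41, limma adjusted p = 0.195), and the exonuclease gene Isg20 (0.38, limma adjusted p = 0.261). Of 49 other interferon-stimulated genes 39 were positive (median 0.20), with Ifit1bl1 (0.62, limma adjusted p = 0.447) and Phf11b (0.46, limma adjusted p = 0.505) at the top. The other class I list, H2-Q10 included, had 15 of 19 positive (median 0.12), and H2-Q7 had 0.37 (limma adjusted p = 0.359). The other class II list had 16 of 17 positive (median 0.21), with Cd80, a costimulatory ligand, at 0.36 (limma adjusted p = 0.403) and H2-DMa, which edits class II peptides, at 0.35 (limma adjusted p = 0.344).

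Levels of immune cell markers also varied between libraries. The mean log2 level of the macrophage list was highest in Lsd1 KO replicates 4 and 1 and lowest in control replicate 4, unlike that of the interferon-stimulated genes. B cell markers had 10 of 10 positive fold changes (median 0.31, 0 called by limma), with summed levels of 11170 to 15570 in Lsd1 KO and 7088 to 15570 in control libraries. T cell markers had 12 of 12 (median 0.26, 0 called), with sums of 9421 to 12430 in Lsd1 KO and 6606 to 11770 in control libraries. Control replicate 2 was the lowest library for all 10 B cell and all 12 T cell markers. Macrophage markers had 9 of 10 (median 0.22, 0 called), with sums of 27670 to 34760 in Lsd1 KO and 23880 to 28690 in control libraries, and dendritic cell markers 7 of 10 (median 0.09, 0 called), with 3252 to 3795 in Lsd1 KO and 2397 to 3952 in control libraries. With the B cell level as a covariate the fold changes of Cd74 and H2-Ab1 were 0.13 and 0.14. In whole tissue, more cells of a type and more RNA per cell cannot be told apart. The part of these cells in the levels of the 45 genes was not tested. The covariate is a marker mean from the same 8 libraries, so it cannot separate B cell content from other differences between them.

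**Figure D4:**
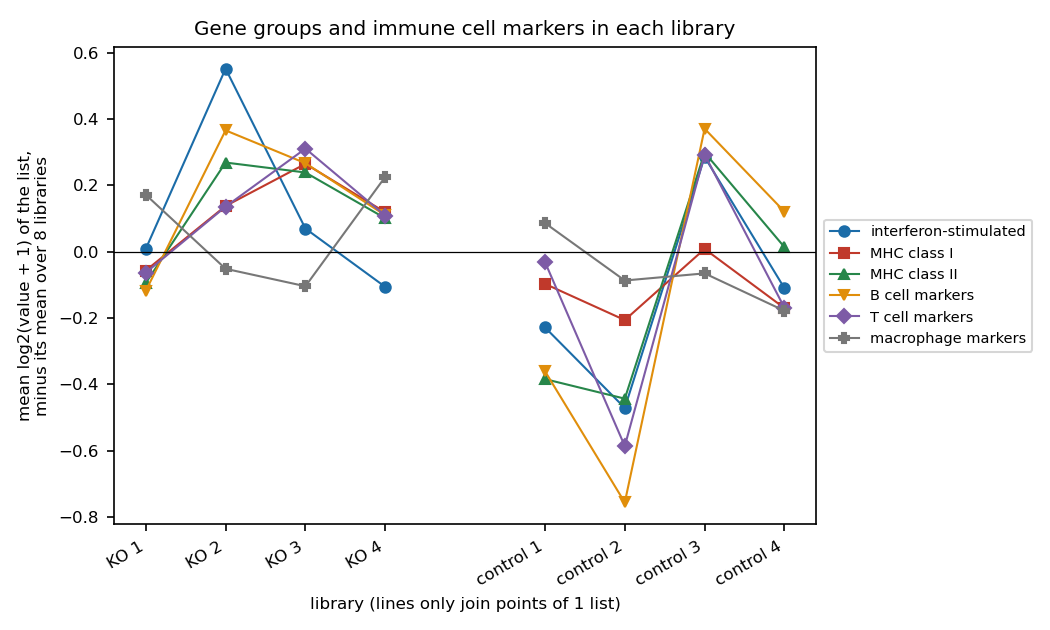
Mean log2(value + 1) of each gene group and each immune marker list in every library, minus its mean over the 8 libraries (vertical axis), with Lsd1 KO libraries left of control libraries. All lists but the macrophage one are lowest in control replicate 2, and Lsd1 KO replicate 2 stands highest for the interferon-stimulated genes at 0.55.

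Other tissues also differed between libraries. Skeletal muscle markers summed to 13280 to 201000 in Lsd1 KO and 8885 to 38860 in control libraries, with Lsd1 KO replicates 1, 2 and 4 high (13 of 13 positive, median 2.05, 0 called). Krt5 and Krt14, keratin genes on the mammary epithelial list, were at 237 and 137 in Lsd1 KO replicate 1 and 82.2 and 39.7 in Lsd1 KO replicate 2. Both were under 1 in the other libraries. The other 8 of the 10 mammary epithelial markers were not confined to Lsd1 KO replicates 1 and 2. Krt8, Krt18, Elf5, Csn3 and Wfdc18 were under 10 in all libraries. Epcam, Krt19 and Cldn3 were the 3 that were tested. Epcam and Krt19 were at 25.6 to 61.1 in Lsd1 KO and 12.3 to 45.7 in control libraries. Cldn3 was at 37.2 to 56.7 in Lsd1 KO, highest in replicates 1 and 2, and at 20.0 to 32.8 in control libraries. Its groups did not overlap, as for 8.65% of all genes, and it did not pass (limma adjusted p = 0.172). Adipocyte markers were abundant throughout, with sums of 223600 to 260100 in Lsd1 KO and 292000 to 377800 in control libraries. Of these markers 9 of 10 were negative, and 1, the lipid droplet gene Cidec, passed the test (log2 fold change -1.01, limma adjusted p = 0.00179). All Lsd1 KO libraries lay below the controls for 5 of 10 (Fabp4, Cidec, Lipe, Adrb3 and Acvr1c), against 3.58% of all genes. Endothelial markers were negative for 8 of 8 (median -0.12, 0 called), and 2 of 8, Cdh5 and Kdr, had all Lsd1 KO libraries below the controls. The sums of this list were 13880 to 16150 in Lsd1 KO and 16010 to 18480 in control libraries. The part of these other tissues in the levels of the 45 genes was not tested. With the muscle marker level as a covariate the median over the 45 genes was 0.28 and none passed. H2-Q10 passed with that covariate too.

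In the genome, 10 of the 45 genes lie on chromosome 17, which holds the mouse MHC, 8 on chromosome 5, 5 on chromosome 11 and 4 on chromosome 3. In GRCm38.p6, H2-K1 lies on chromosome 17 from 33996012 to 34000619, Tapbp from 33919478 to 33929290, Psmb8 from 34198195 to 34201454, H2-Eb1 from 34305867 to 34316674 and H2-Q10 from 35470089 to 35474563. Rtp4 lies on chromosome 16 from 23520219 to 23614222 and Ifit1 on chromosome 19 from 34640889 to 34650009. Genes that share chromosome 17 differed in their order of libraries: H2-K1 placed all Lsd1 KO libraries first, and H2-Eb1 placed control replicate 3 above Lsd1 KO replicates 4 and 1. Tap1 and Psmb9 overlap over 212 exon bases on opposite strands, so reads there cannot be told apart without strand.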

How the data were processed

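RNA of inguinal fat was sequenced in 4 Lsd1 KO and 4 control libraries. TopHat version 2 placed reads on mm10 and HOMER counted them, per the submitters' processing notes and the design text. For HOMER's version, the annotation, strandedness, read length and scaling, nothing was given in the sources used here. The authors deposited a signal for 23373 rows per library. From the values, it is a read count times 1 factor per library: 100% of the low values (up to 40 steps) were whole multiples of a step of 0.442 to 0.545, within 0.02. Dividing by the step gave 25671835 to 32442724 reads per library, and such values are called scaled reads. Even multiples made up 54.0 to 56.2% of these values, so a step may be 1 end of a read pair.

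Accessions were matched to symbols with RefSeq GRCm38.p6 (22527 rows) and GENCODE M21 (124). Another 721 rows, holding 1.64% of the summed value, kept their accession. A row (1) that lacked an accession was dropped. Genotypes were compared with limma (3.58.1, trend option) on log2(value + 1). The model held genotype alone, the test was two-sided, and genes needed a value of 10 or more in 4 or more libraries. Benjamini-Hochberg adjusted p-values were read at 0.05. This scale understates changes of low genes. Single genes were also compared by an exact permutation test over 70 assignments. Alternatives were pseudocounts of 0.5 and 5, no filter, TMM scaling, edgeR (4.0.16) quasi-likelihood and DESeq2 (1.42.0) tests on recovered reads, a B cell or muscle marker level as covariate, and leaving out each library or control replicates 1 and 2. R was 4.3.3, Python 3.11.15 and pandas 2.3.3. The test was checked on simulated data.

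The 46 genes, the other gene lists and the marker lists were chosen with earlier results of these data known. Values in every library are given for the 4 genes of each group with the largest fold change, the 2 with the highest level per kilobase, the regulators Irf1, Irf7, Irf9, Stat2 and Ciita, and those called. A gene covered by this rule is not reported here. From each further list the 2 genes with the largest fold change are named. Ifit1, Dhx58, Cxcl9, Rsad2, Cxcl10 and Psmb9 were given in more detail after their values were seen. Promoter windows are those of the RefSeq table. Shared 50-base stretches and exon overlaps were counted in GENCODE M21.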

Additional observations from a re-analysis of the deposited data

Results flagged for a closer look

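In 4 of 92 groups of 4 libraries that were checked, 1 library stood apart from the others by more than Dixon's 95% critical value, where chance gives about 1 in 20 groups. Ifit2 was at 532 scaled reads in Lsd1 KO replicate 2, against 338 to 357 in the other Lsd1 KO libraries. Irf7 was at 1780 in Lsd1 KO replicate 2 and at 1210 to 1250 in the others of that group. Oasl2 was at 750 in control replicate 3, against 470 to 493 in the other control libraries, and Cxcl10 at 240 in control replicate 3, against 95.8 to 105.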

How the results depend on the processing

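The count of called genes stayed at 0 for the interferon-stimulated and the class II genes in all 17 alternatives, and for class I in all but DESeq2, which called 1. The count over the further lists stayed at 1. Over all genes tested, the calls ran from 71 of 14474 (without Lsd1 KO replicate 4) to 776 of 14591 (DESeq2). With so few genes called, a count of 0 in a small group says little about that group. Signs of single genes were less firm. The log2 fold change changed sign for Rsad2 (0.0031) and Ciita (-0.053) with edgeR and for Rsad2 (0.00043) and Ciita (-0.057) with DESeq2. With the B cell covariate it did so for Ifit2 (-0.041), Ifit3 (-0.0042), Oasl1 (-0.084), Ifi44 (-0.0032), Cxcl10 (-0.075), and Ciita (-0.26), and with the muscle covariate for Oasl2 (-0.042), Ifih1 (-0.028) and Ciita (-0.17). Without control replicates 1 and 2 together it did so for Ifit2 (-0.024), Ifit3 (-0.085), Mx2 (-0.12), Oas1a (-0.0030), Oasl1 (-0.046), Ifi44 (-0.37), Cxcl10 (-0.12) and Ciita (-0.39). Leaving out 1 library gave ranges across 0 for Ciita (-0.21 to 0.23), Stat2 (-0.10 to 0.018), Rsad2 (-0.22 to 0.11), Gbp3 (-0.10 to 0.037), Gbp6 (-0.19 to 0.076), Gbp7 (-0.15 to 0.10) and Oasl1 (-0.020 to 0.38). The cause was not tested. No paired analysis was possible because the numbers in the titles are not shared between the genotypes. With 4 libraries a group, 95% intervals such as that of Ifit1 (0.792 to 2.23 as a fold) leave room for changes in either direction.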
